A study of Saccharomyces cerevisiae with 12 samples.

Results

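The genes described here are the yeast aminoacyl-tRNA synthetases, the enzymes that join each amino acid to its tRNA, together with their cofactor gene *ARC1*. The 36 genes were taken by name from a fixed list and matched to the deposited gene symbols or locus names, and they make up 36 of the 6302 genes in the count table. Of these, 22 belong to the cytosol (21 synthetase genes and *ARC1*) and 14 encode mitochondrial enzymes. The rule itself uses names and no measured value, though it was set when earlier results of these data were known.

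The measurements are 5PSeq read counts, which record the 5′ ends of mRNA molecules that carry a 5′ monophosphate, as decapped or cleaved transcripts do. All strains were MATa BY4741 derivatives carrying his3∆1, leu2∆0 and ura3∆0, grown in YPD at 30°C and 200 rpm, with 3 libraries per strain. The *ncs2*∆*elp6*∆*hel2*∆ strain carried ncs2∆::HIS3MX, elp6∆::URA3 and hel2∆::LEU2, the *ncs2*∆*elp6*∆ strain carried the first 2 of these, the *hel2*∆ strain carried hel2∆::LEU2 alone, and wild type was labelled met15∆0, an allele that the mutants' labels do not list. The labels do not say whether the libraries of a strain came from separate cultures, so p-values measure the spread between these libraries. The counts of a gene reflect both the amount of its mRNA and how much of that mRNA is being degraded, and these cannot be told apart here.

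Synthetases fall into class I and class II, which have unrelated catalytic folds, and most organelle enzymes in yeast are made from nuclear genes of their own. *ALA1*, *GRS1*, *HTS1* and *VAS1* are among the exceptions, because each supplies both the cytosol and mitochondria. Elp6 is a subunit of Elongator, which starts the side chains (mcm5 and ncm5) on the wobble uridine U34 of a set of tRNAs, and Ncs2 takes part in adding the 2-thio group, so that the tRNAs for lysine, glutamine and glutamate carry mcm5s2U. Hel2 is the ubiquitin ligase that recognises collided ribosomes and starts ribosome-associated quality control. The synthetases were therefore grouped by the tRNAs they charge. *KRS1* (lysine), *GLN4* (glutamine) and *GUS1* (glutamate) charge tRNAs with mcm5s2U. By the codon sets of the study, a further 9 genes charge at least some tRNAs with mcm5U or ncm5U: *YDR341C* (arginine), *GRS1* and its paralog *GRS2* (glycine), *VAS1* (valine), *SES1* (serine), *YHR020W* (proline), *THS1* (threonine), *ALA1* (alanine) and *CDC60* (leucine). The other 9 charge tRNAs that lack these modifications: *DED81* (asparagine), *DPS1* (aspartate), *FRS1* and *FRS2* (the subunits of the phenylalanine enzyme), *HTS1* (histidine), *ILS1* (isoleucine), *MES1* (methionine), *TYS1* (tyrosine) and *WRS1* (tryptophan).

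Library totals ran from 104202 to 415323 counts, and the 36 genes together took 0.766% to 1.25% of a library. The low-count filter kept 3378 genes, among them 30 of the 36. All 22 cytosolic genes passed, but only 8 of the 14 mitochondrial genes did (*ISM1*, *MSD1*, *MSE1*, *MSK1*, *MSR1*, *MSY1*, *NAM2* and *SLM5*). The other 6 (*AIM10*, *DIA4*, *MSF1*, *MSM1*, *MST1* and *MSW1*) had 0 to 18 reads in any library and 38 to 84 reads over all 12, and were left out of the test. In a fit without the filter none of them passed in any comparison (edgeR), and 1, *MSF1* in *ncs2*∆*elp6*∆*hel2*∆ against *hel2*∆, had an unadjusted p under 0.05 (0.042). The deleted genes followed the labels. *HEL2* had 0 to 13.3 CPM (read counts divided by the TMM-scaled library size) in *ncs2*∆*elp6*∆*hel2*∆ and 10.4 to 27.3 CPM in *hel2*∆, against 72.8 to 109 CPM in wild type. *NCS2* and *ELP6* reached at most 4.42 and 17.7 CPM in the strains that lack them, against at least 34.2 and 31.8 CPM in wild type.

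Levels per kb of annotated gene length spanned more than 2 orders of magnitude among the 36 genes, and the cytosolic genes lay above most of the mitochondrial ones. The median over the 22 cytosolic genes was 167 CPM per kb in *ncs2*∆*elp6*∆ and 158 CPM per kb in wild type. Over the 14 mitochondrial genes the median was 21.3 CPM per kb in *ncs2*∆*elp6*∆ and 27.2 CPM per kb in wild type, below the wild-type median of 38.4 CPM per kb over all 5772 genes with a length. *DPS1* was the highest of the 36 in every strain, at 1819 CPM per kb in *ncs2*∆*elp6*∆ and 1173 CPM per kb in wild type, where it ranked 68th of the 5772 genes. *GUS1*, *ARC1*, *TYS1* and *CDC60* followed in wild type, with 307 to 390 CPM per kb. Arc1 binds the methionine and glutamate enzymes and promotes their tRNA binding. At the low end of the cytosolic genes stood *GRS2* (31.2 CPM per kb in wild type), the little-used copy of *GRS1*, and *HTS1* (20.2 CPM per kb in wild type). *MSE1* (mitochondrial glutamate enzyme) and *SLM5* (mitochondrial asparagine enzyme) stood above the other mitochondrial genes, at 137 and 89.0 CPM per kb in wild type. The values of *GRS1* and *GRS2*, and of *YDR341C* and its mitochondrial paralog *MSR1*, leave out any read that matched both copies, because only uniquely mapped reads were counted. No member overlapped another annotated protein-coding gene in RefSeq.

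**Figure D1:**
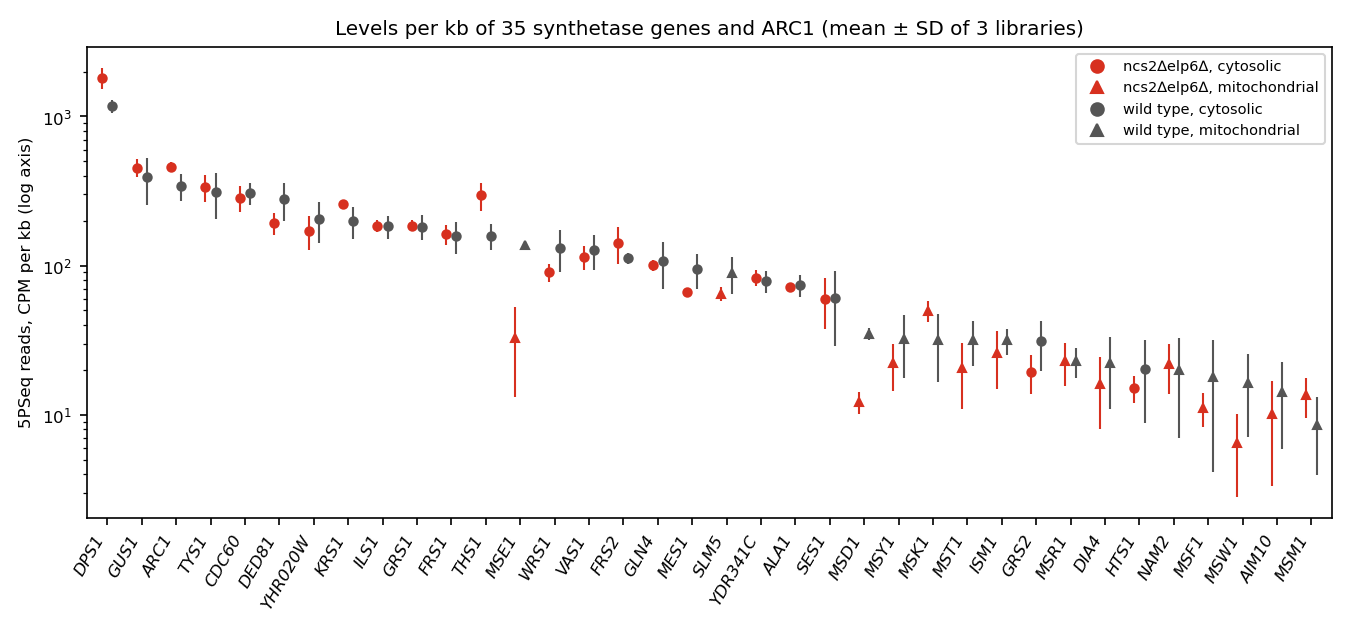
Level of each gene in CPM per kb (log axis) in *ncs2*∆*elp6*∆ (red) and wild type (grey), as mean ± SD of 3 libraries, with circles for cytosolic genes, *ARC1* included, and triangles for mitochondrial genes, ordered by the wild-type level. *DPS1* lies apart at the top with 1173 CPM per kb in wild type, and the pair of points is widest for *MSE1*, at 32.8 CPM per kb in *ncs2*∆*elp6*∆ and 137 CPM per kb in wild type.

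Wild-type replicate 2 stood apart from the other wild-type libraries in these genes. It was the highest of the 3 wild-type libraries for 19 of the 22 cytosolic genes, whereas it was the highest for 35% of all tested genes. The summed level of the 22 cytosolic genes was 11558, 9584 and 10392 CPM in *ncs2*∆*elp6*∆, against 8462, 11147 and 7842 CPM in wild type, and the strains overlapped through wild-type replicate 2. In *ncs2*∆*elp6*∆*hel2*∆ the sum was 10580, 10603 and 12030 CPM, and in *hel2*∆ it was 10247, 9997 and 10019 CPM.

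*KRS1*, *GLN4* and *GUS1*, whose tRNAs lose mcm5s2U in the strains without *NCS2* and *ELP6*, passed the test in none of the comparisons. *KRS1* (chromosome IV, 525440 to 527215, assembly R64) had 482, 424 and 467 CPM in *ncs2*∆*elp6*∆, against 331, 452 and 284 CPM in wild type. Its *ncs2*∆*elp6*∆ libraries were all above wild-type replicates 1 and 3, and the groups overlapped through wild-type replicate 2. The log2 fold change was 0.36 with a 95% interval of −0.070 to 0.80 (edgeR's quasi-likelihood test, adjusted p = 0.201). In *ncs2*∆*elp6*∆*hel2*∆ *KRS1* had 393, 578 and 442 CPM, a log2 fold change against wild type of 0.44 with a 95% interval of 0.0032 to 0.88 (edgeR, adjusted p = 0.192), and in *hel2*∆ it had 431, 409 and 453 CPM, a log2 fold change of 0.29 (edgeR, adjusted p = 0.980).

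*GLN4* (chromosome XV, 649303 to 651732) had 219, 256 and 258 CPM in *ncs2*∆*elp6*∆, against 263, 349 and 167 CPM in wild type, so the mutant libraries lay inside the wild-type range. Its log2 fold change was −0.094 with a 95% interval of −0.62 to 0.44 (edgeR, adjusted p = 0.819). The *ncs2*∆*elp6*∆*hel2*∆ libraries held 202, 258 and 385 CPM and the *hel2*∆ libraries 284, 204 and 193 CPM. Against wild type the log2 fold changes were 0.14 in *ncs2*∆*elp6*∆*hel2*∆ and −0.19 in *hel2*∆, and both intervals held 0.

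*GUS1* (chromosome VII, 39023 to 41149) was the highest of the 3 per kb. It had 1071, 825 and 1006 CPM in *ncs2*∆*elp6*∆, against 676, 1156 and 655 CPM in wild type, again with wild-type replicate 2 above the rest. Its log2 fold change was 0.23 with a 95% interval of −0.23 to 0.68 (edgeR, adjusted p = 0.473). It was 0.53 without wild-type replicate 2 and 0.084 without wild-type replicate 3. It averaged 873 ± 98.9 CPM in *ncs2*∆*elp6*∆*hel2*∆ and 877 ± 43.7 CPM in *hel2*∆ (SD, n = 3 each), with log2 fold changes against wild type of 0.074 and 0.082. In *ncs2*∆*elp6*∆ the upper ends of the 3 intervals lay at 0.44 to 0.80 on the log2 scale, so increases up to those sizes remain within the error of 3 libraries.

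**Figure D2:**
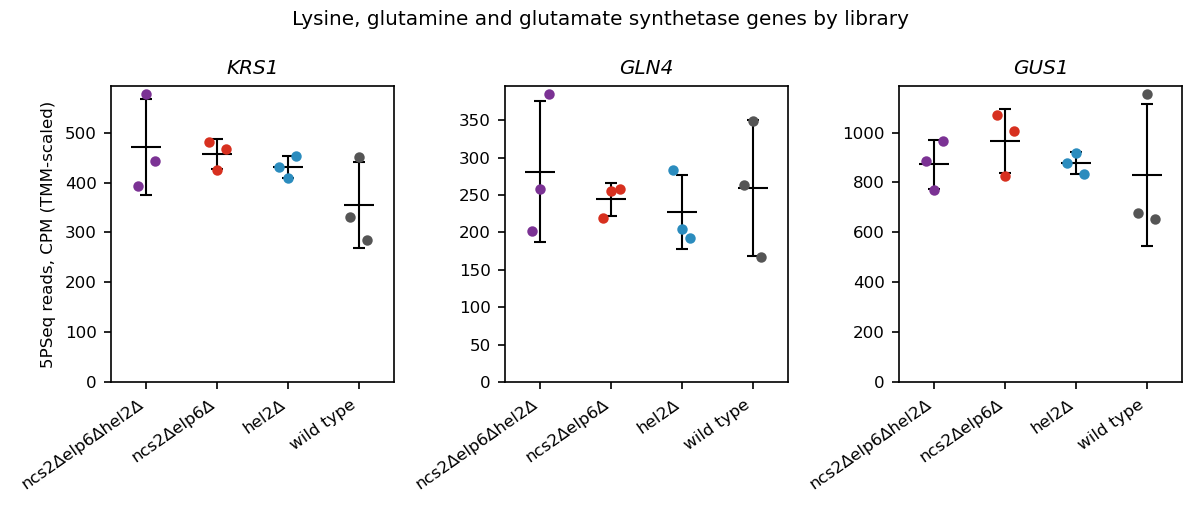
CPM (TMM-scaled) of *KRS1*, *GLN4* and *GUS1* in each library (points) of *ncs2*∆*elp6*∆*hel2*∆, *ncs2*∆*elp6*∆, *hel2*∆ and wild type, with the mean and SD of 3 libraries in black. For all 3 genes the mutant libraries overlap the wild-type libraries, of which replicate 2 (the middle point) is the highest.

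The 3 genes were then set against the 18 other cytosolic synthetase genes within each library, as the difference of their mean log2 CPM. The difference was 0.80, 0.83 and 0.97 in *ncs2*∆*elp6*∆, against 0.72, 0.75 and 0.42 in wild type. The *ncs2*∆*elp6*∆ libraries all lay above the wild-type libraries, though the gap between the lowest mutant and the highest wild-type library was smaller than the wild-type SD of 0.18. It was 0.71, 0.81 and 0.87 in *ncs2*∆*elp6*∆*hel2*∆ and 0.59, 0.71 and 0.56 in *hel2*∆. The means were 0.79 ± 0.081 in *ncs2*∆*elp6*∆*hel2*∆, 0.87 ± 0.092 in *ncs2*∆*elp6*∆, 0.62 ± 0.078 in *hel2*∆ and 0.63 ± 0.18 in wild type (SD, n = 3 each). No test was made on this difference, since it sums over chosen genes. The 18 other genes count equally in it and include *GRS2* and *HTS1*, with 6 to 15 and 1 to 13 reads per library. In *ncs2*∆*elp6*∆ against wild type the log2 fold changes of *GRS2* and *HTS1* were −0.67 and −0.34. Both genes reached the cutoff of the low-count filter in 1 wild-type, 2 *hel2*∆ and 0 *ncs2*∆*elp6*∆ libraries. In *ncs2*∆*elp6*∆*hel2*∆ *GRS2* reached it in 1 library and *HTS1* in 0. Lower values of both in *ncs2*∆*elp6*∆, and with them a larger difference there, were thus favoured by the filter. The difference without these low-count genes was not computed. The separation of the strains therefore cannot be credited to *KRS1*, *GLN4* and *GUS1*.

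The separation depended on which of the 3 genes were used. Without *KRS1* it spanned 0.80 to 1.01 in *ncs2*∆*elp6*∆, against 0.50 to 0.92 in wild type, and the strains overlapped. Without *GUS1* it spanned 0.23 to 0.47 in *ncs2*∆*elp6*∆, against −0.092 to 0.33 in wild type, and they overlapped again. Without *GLN4* it spanned 1.23 to 1.43 in *ncs2*∆*elp6*∆, against 0.86 to 1.099 in wild type, with no overlap. Each of these forms kept the low-count genes *GRS2* and *HTS1* among the others. As the log2 ratio of summed raw counts it averaged −2.32 ± 0.079 in *ncs2*∆*elp6*∆ and −2.37 ± 0.19 in wild type (SD, n = 3 each), and the strains overlapped. In that ratio *DPS1* alone held 34.1% to 38.3% of the counts of the 18 other genes in *ncs2*∆*elp6*∆, against 25.1% to 27.9% in wild type.

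**Figure D3:**
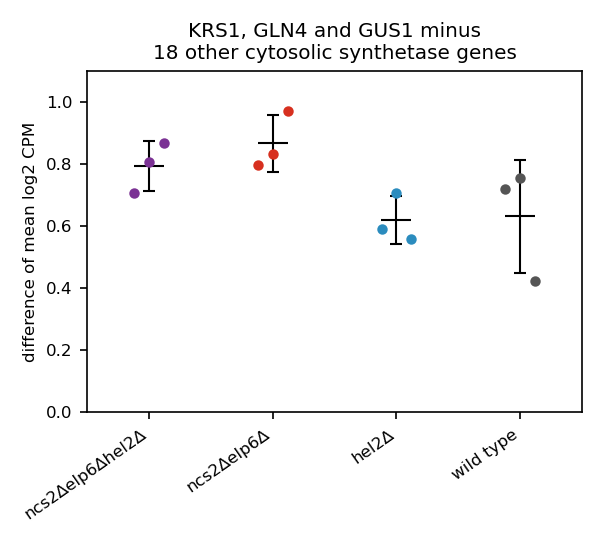
Mean log2 CPM of *KRS1*, *GLN4* and *GUS1* minus that of 18 other cytosolic synthetase genes in each library (points), with the mean and SD of 3 libraries in black. The *ncs2*∆*elp6*∆ libraries lie between 0.80 and 0.97 and the wild-type libraries between 0.42 and 0.75. The 18 genes include the low-count genes *GRS2* and *HTS1*, without which the difference was not computed.

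In *ncs2*∆*elp6*∆ against wild type, 4 of the 30 tested genes passed the test (adjusted p under 0.05). *THS1* and *DPS1*, both cytosolic, rose, and *MSE1* and *MSD1*, both mitochondrial, fell. *MSD1* met the low-count filter only through wild type, so its lower level in the mutant was favoured by the filter. The 4 genes are 13.3% of the 30, while 30.1% of all 3378 tested genes passed in this comparison. The difference between these shares was not tested. Libraries of the 2 strains did not overlap for 6 of the 30 genes (*ARC1*, *DPS1* and *THS1* above wild type, *MES1*, *MSD1* and *MSE1* below), against 43.5% of all tested genes.

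*THS1* (chromosome IX, 212499 to 214703), the cytosolic threonine enzyme, had 589, 809.7 and 559 CPM in *ncs2*∆*elp6*∆, against 331, 424 and 291 CPM in wild type. Every *ncs2*∆*elp6*∆ library was above every wild-type library. The difference was 1.88-fold, or 0.91 ± 0.22 on the log2 scale (SE; edgeR, adjusted p = 0.00253), and it still passed when any 1 of these 6 libraries was dropped. *THS1* stood alone in this respect among the 9 genes whose tRNAs carry mcm5U or ncm5U, of which the other 8 had log2 fold changes of −0.67 (*GRS2*) to 0.096 (*YDR341C*).

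*DPS1* (chromosome XII, 109902 to 111575), the cytosolic aspartate enzyme, had 3535, 2595 and 3007 CPM in *ncs2*∆*elp6*∆, against 1896, 2196 and 1798 CPM in wild type. The groups did not overlap, and the difference was 1.55-fold, or 0.63 ± 0.22 on the log2 scale (SE; edgeR, adjusted p = 0.0326). The call was lost without wild-type replicate 1 (adjusted p = 0.0583), wild-type replicate 3 (0.125), *ncs2*∆*elp6*∆ replicate 1 (0.117) or *ncs2*∆*elp6*∆ replicate 3 (0.0689), each from edgeR. It was also lost with the replicate number as a block (edgeR, adjusted p = 0.0611) and without the low-count filter (edgeR, adjusted p = 0.0518). The tRNA for aspartate carries none of the U34 modifications removed here, and the other 8 genes of its group had log2 fold changes of −0.52 (*DED81*) to 0.35 (*FRS2*). *DED81* itself passed only without wild-type replicate 1 (edgeR, adjusted p = 0.0362, against 0.0811 with all libraries), and its log2 fold change ran from −0.66 to −0.29 as single libraries were dropped.

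*MSE1* (chromosome XV, 263475 to 265085), the mitochondrial glutamate enzyme, had 27.9, 42.1 and 88.5 CPM in *ncs2*∆*elp6*∆, against 218, 212 and 233 CPM in wild type. These values rest on 7, 14 and 22 reads in *ncs2*∆*elp6*∆ and 48, 31 and 32 reads in wild type. All *ncs2*∆*elp6*∆ libraries were below all wild-type libraries, and their spread was wide, with replicate 3 above the others. The log2 fold change was −2.07 ± 0.35 (SE; edgeR, adjusted p = 7.26e-05), and *MSE1* also passed when any 1 of the 6 libraries was dropped.

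*MSD1* (chromosome XVI, 355700 to 357676), the mitochondrial aspartate enzyme, had 19.9, 24.1 and 28.2 CPM in *ncs2*∆*elp6*∆, against 72.6, 61.6 and 72.8 CPM in wild type, from 5 to 8 reads in *ncs2*∆*elp6*∆ and 9 to 16 reads in wild type. The groups did not overlap and the log2 fold change was −1.50 ± 0.40 (SE; edgeR, adjusted p = 0.00534). It too passed with any 1 of the 6 libraries dropped. *MSD1* met the low-count filter only through the 3 wild-type libraries, the group where it was high, so a difference from wild type was favoured by the filter. In the fit without the filter its log2 fold change was −1.47 (edgeR, adjusted p = 0.00848). *MSE1* and *MSD1* serve the same amino acids as the cytosolic *GUS1* and *DPS1*, of which *DPS1* rose and *GUS1* did not pass.

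**Figure D4:**
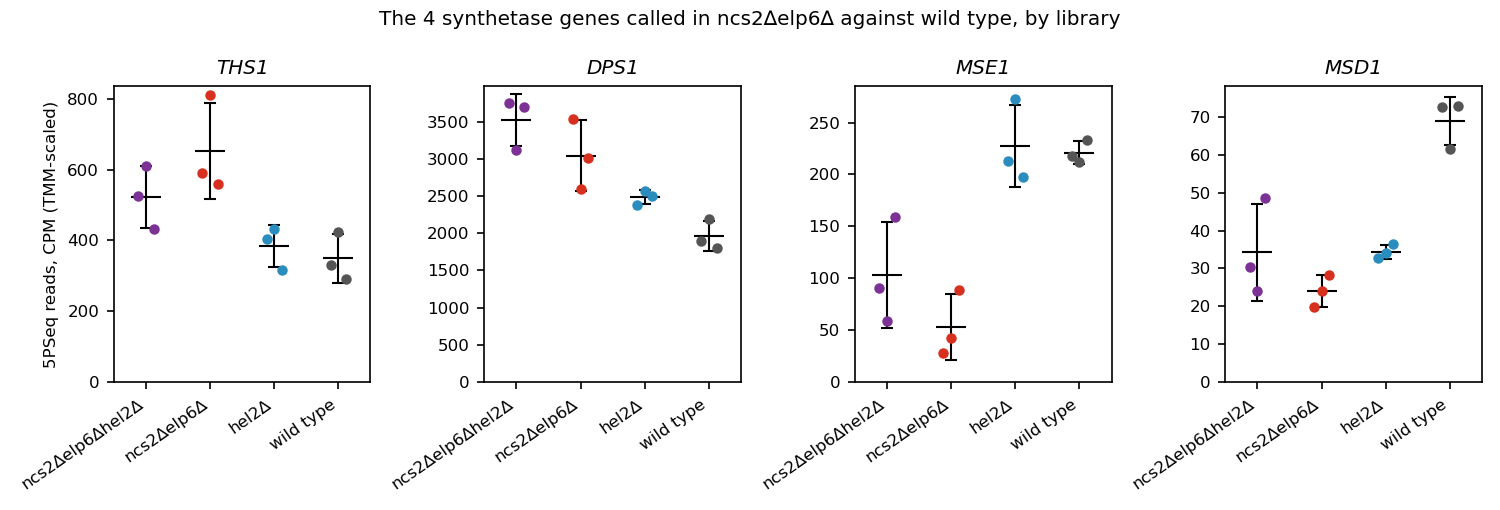
CPM (TMM-scaled) of *THS1*, *DPS1*, *MSE1* and *MSD1* in each library (points) of the 4 strains, with the mean and SD of 3 libraries in black. The *ncs2*∆*elp6*∆ libraries lie above wild type for *THS1* and *DPS1* and below it for *MSE1* and *MSD1*, and for *MSD1* the *hel2*∆ libraries also lie below wild type.

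The remaining 6 tested mitochondrial genes ranged from a log2 fold change of −0.59 (*MSY1*, tyrosine) to 0.64 (*MSK1*, lysine) in *ncs2*∆*elp6*∆ against wild type. The median over the 8 that met the filter, *MSD1* included, was −0.38, beside a median of 0.0074 over the 22 cytosolic genes and 0.042 over all tested genes. Without wild-type replicate 1 the mitochondrial median was −0.10, without wild-type replicate 2 it was −0.67, and with library totals in place of TMM it was −0.13. The summed level of the 8 genes was 410 to 551 CPM in *ncs2*∆*elp6*∆, against 650 to 817 CPM in wild type. Without *MSE1* and *MSD1* it was 362 to 435 CPM in *ncs2*∆*elp6*∆ and 376 to 526 CPM in wild type, and the strains overlapped.

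*ARC1* had 545, 476 and 543 CPM in *ncs2*∆*elp6*∆, against 404, 452 and 299 CPM in wild type, and did not pass (log2 fold change 0.43; edgeR, adjusted p = 0.138). *SES1*, a serine enzyme gene that the study lists as a quality-control target, averaged 83.4 ± 31.0 CPM in *ncs2*∆*elp6*∆ and 83.6 ± 43.5 CPM in wild type (SD, n = 3 each; log2 fold change 0.028; edgeR, adjusted p = 0.966). *FRS2*, which the study lists among the transcripts it calls refractory to quality control, averaged 215 ± 60.6 CPM in *ncs2*∆*elp6*∆ and 169 ± 13.99 CPM in wild type (SD, n = 3 each; log2 fold change 0.35; edgeR, adjusted p = 0.306). Without *ncs2*∆*elp6*∆ replicate 1 the *FRS2* log2 fold change was 0.10, and without *ncs2*∆*elp6*∆ replicate 2 it was 0.58.

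The scaling of the libraries bore on these counts. With library totals in place of TMM factors, the median log2 fold change of all genes in *ncs2*∆*elp6*∆ against wild type moved to 0.29, against 0.042 with TMM, and 62.9% of the calls over all genes were higher in the mutant, against 44.6% with TMM. Under that scaling *KRS1* (log2 fold change 0.62; edgeR, adjusted p = 0.0321) and *ARC1* (0.68; edgeR, adjusted p = 0.0228) passed as well, and *GLN4* had a log2 fold change of 0.17. Set against the median of all genes these values are close to those with TMM. *THS1*, *DPS1*, *MSE1* and *MSD1* kept their calls and directions.

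In *ncs2*∆*elp6*∆*hel2*∆ against wild type, 2 of the 30 genes passed, *DPS1* higher and *MSE1* lower. They are 6.67% of the 30, beside 11.1% of all tested genes. *DPS1* had 3752, 3117 and 3699 CPM in *ncs2*∆*elp6*∆*hel2*∆, above every wild-type library, and the difference was 1.79-fold, or 0.84 ± 0.22 on the log2 scale (SE; edgeR, adjusted p = 0.0140). That call was lost without wild-type replicate 3 (edgeR, adjusted p = 0.0883) or *ncs2*∆*elp6*∆*hel2*∆ replicate 1 (0.0573). *MSE1* had 90.8, 58.9 and 159 CPM in *ncs2*∆*elp6*∆*hel2*∆, below every wild-type library, with a log2 fold change of −1.16 ± 0.34 (SE; edgeR, adjusted p = 0.0265). It was lost without wild-type replicate 2 (edgeR, adjusted p = 0.0570), wild-type replicate 3 (0.0869), *ncs2*∆*elp6*∆*hel2*∆ replicate 1 (0.0603) or *ncs2*∆*elp6*∆*hel2*∆ replicate 2 (0.245, log2 fold change −0.75), and with library totals in place of TMM (0.0521).

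*THS1* had 524, 609 and 434 CPM in *ncs2*∆*elp6*∆*hel2*∆, also above every wild-type library, but did not pass (log2 fold change 0.59; edgeR, adjusted p = 0.0937). *MSD1*, which met the filter only through wild type, had 30.3, 24.0 and 48.7 CPM in *ncs2*∆*elp6*∆*hel2*∆, below every wild-type library. It did not pass either (log2 fold change −1.06; edgeR, adjusted p = 0.0809). Both passed without *ncs2*∆*elp6*∆*hel2*∆ replicate 3 (edgeR, adjusted p = 0.0421 for *THS1* and 0.0392 for *MSD1*), and *THS1* also with library totals in place of TMM (edgeR, adjusted p = 0.0362). As single libraries were dropped, the adjusted p reached 0.443 for *THS1* and 0.457 for *MSD1*. *DPS1*, *THS1*, *MSD1* and *MSE1* were the only genes of the 30 whose libraries did not overlap between these strains, against 26.4% of all tested genes. This comparison and that of *ncs2*∆*elp6*∆ share their wild-type libraries.

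**Figure D5:**
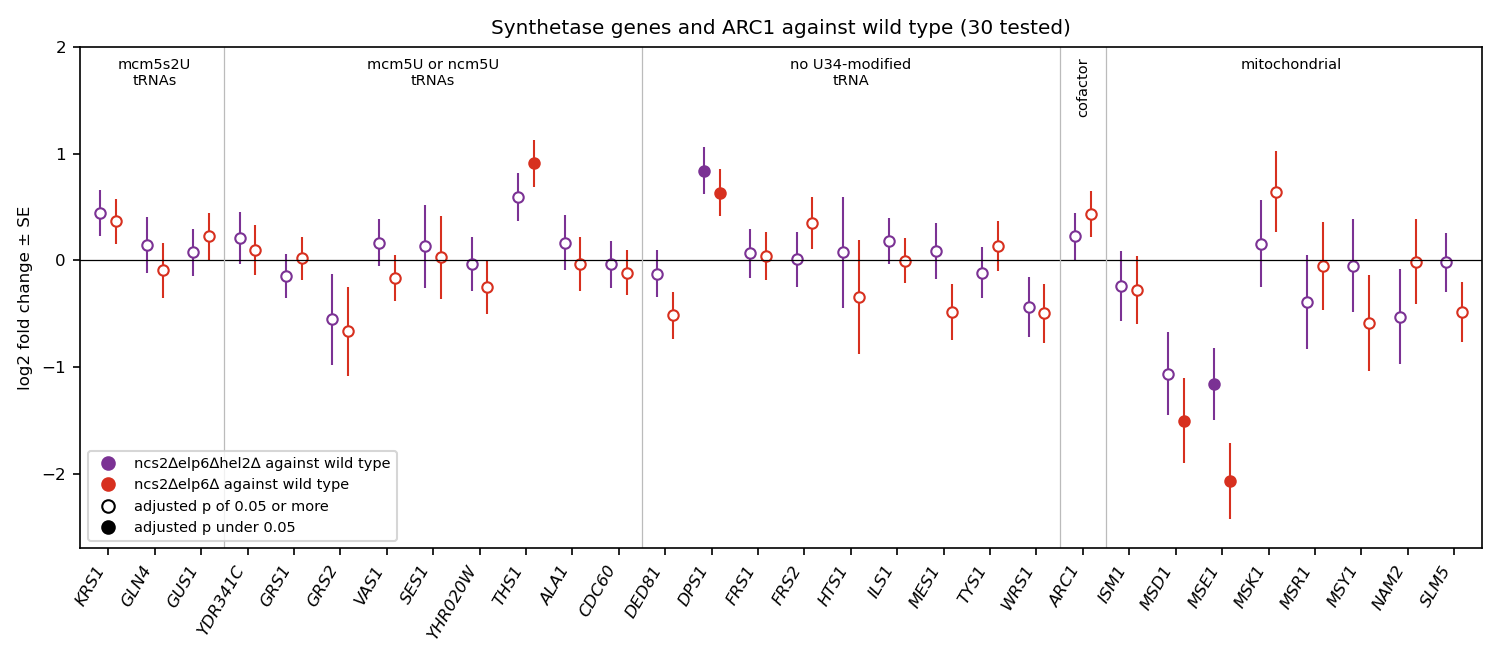
Log2 fold change ± SE against wild type of the 30 tested genes in *ncs2*∆*elp6*∆*hel2*∆ (purple) and *ncs2*∆*elp6*∆ (red), ordered by the tRNA group or compartment, with filled points where the adjusted p was under 0.05. Filled points stand at *THS1*, *DPS1*, *MSD1* and *MSE1* in *ncs2*∆*elp6*∆ and at *DPS1* and *MSE1* in *ncs2*∆*elp6*∆*hel2*∆.

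In *hel2*∆ against wild type no gene of the 30 passed (0 by edgeR and 0 by DESeq2, with 1 at an unadjusted p under 0.05), in a comparison where 0.0888% of all tested genes passed. That gene was *MSD1*, which met the filter only through wild type and had 32.8, 34.1 and 36.4 CPM in *hel2*∆, against 72.6, 61.6 and 72.8 CPM in wild type. The groups did not overlap, at 3 to 7 reads per *hel2*∆ library, and the log2 fold change was −0.99 (edgeR, adjusted p = 0.980). *MSE1* averaged 228 ± 39.6 CPM in *hel2*∆ and 221 ± 10.8 CPM in wild type (SD, n = 3 each), and *THS1* 384 ± 59.6 CPM in *hel2*∆ and 349 ± 68.2 CPM in wild type (SD, n = 3 each). The *DPS1* libraries held 2380.2, 2567 and 2498 CPM in *hel2*∆, above the wild-type libraries, with a log2 fold change of 0.34 (edgeR, adjusted p = 0.980). *FRS2* (mean 222 CPM in *hel2*∆, 169 CPM in wild type) and *ISM1* (76.2 and 94.9 CPM) also did not overlap. The share of all tested genes without overlap was not computed for this comparison.

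In *ncs2*∆*elp6*∆*hel2*∆ against *ncs2*∆*elp6*∆ again none of the 30 genes passed (0 by edgeR, with 2 at an unadjusted p under 0.05, and 0 of the 21 to which DESeq2 gave an adjusted p), beside 5.68% of all tested genes. *MSE1* had the smallest p, with 90.8, 58.9 and 159 CPM in *ncs2*∆*elp6*∆*hel2*∆, against 27.9, 42.1 and 88.5 CPM in *ncs2*∆*elp6*∆. The strains overlapped and the log2 fold change was 0.91 (edgeR, adjusted p = 0.175). *MSE1* passed without *ncs2*∆*elp6*∆ replicate 3 (log2 fold change 1.46; edgeR, adjusted p = 0.0437) or *ncs2*∆*elp6*∆*hel2*∆ replicate 2 (1.30; 0.0187), and without *ncs2*∆*elp6*∆*hel2*∆ replicate 3 the log2 fold change was 0.37 (0.857). The log2 fold changes of *KRS1*, *GLN4* and *GUS1* were 0.078, 0.24 and −0.15, and each 95% interval held 0. Those of *THS1*, *DPS1* and *MSD1* were −0.32, 0.21 and 0.44.

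In *ncs2*∆*elp6*∆*hel2*∆ against *hel2*∆, 1 of the 30 genes passed, or 3.33%, beside 14.6% of all tested genes. It was *MSE1*, at 90.8, 58.9 and 159 CPM in *ncs2*∆*elp6*∆*hel2*∆, against 213, 273 and 198 CPM in *hel2*∆, with no overlap and a log2 fold change of −1.17 ± 0.34 (SE; edgeR, adjusted p = 0.0238). The call was lost without *hel2*∆ replicate 1 (edgeR, adjusted p = 0.0708), *hel2*∆ replicate 2 (0.0783), *ncs2*∆*elp6*∆*hel2*∆ replicate 1 (0.0553) or *ncs2*∆*elp6*∆*hel2*∆ replicate 2 (0.207, log2 fold change −0.76). *DPS1* and *THS1* had log2 fold changes of 0.50 and 0.47 without passing (edgeR, adjusted p = 0.129 and 0.167). The libraries of *DPS1*, *THS1*, *DED81* and *NAM2* did not overlap between these strains either. The share of all tested genes without overlap was not computed here. The log2 fold changes of *KRS1*, *GLN4* and *GUS1* were 0.16, 0.33 and −0.0080.

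Whether the effect of losing *NCS2* and *ELP6* depended on *HEL2* was tested by the interaction term. None of the 30 genes passed (0 by edgeR, with 1 at an unadjusted p under 0.05), and 0.0296% of all tested genes did. DESeq2 gave an adjusted p to only 4 of the 30, of which it called 0. The smallest p was that of *MSD1*, with an interaction of 1.43 ± 0.60 on the log2 scale (SE; edgeR, adjusted p = 0.407). *MSD1* had 3 to 16 reads per library and met the filter only through wild type, which favoured a positive interaction. *KRS1*, *GLN4* and *GUS1* had interactions of −0.21, 0.42 and −0.23, and their 95% intervals of −0.82 to 0.41, −0.34 to 1.19 and −0.88 to 0.41 all held 0.

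Genes that act beside the synthetases were measured as a separate list of 16, covering CCA addition (*CCA1*), splicing (*SEN2*, *SEN15*, *SEN34*, *SEN54*, *TRL1*, *TPT1*), 3′ processing (*TRZ1*) and export (*LOS1*) of tRNAs, editing of mischarged tRNAs (*DTD1*, *YNL040W*), the mitochondrial glutamine route (*PET112*, *HER2*, *GTF1*), formylation of initiator tRNA (*FMT1*) and the cysteine synthetase (*YNL247W*). Only 7 of the 16 passed the low-count filter, and none was called in any comparison by edgeR. The lowest adjusted p against wild type in *ncs2*∆*elp6*∆ was that of *LOS1*, with 171, 223 and 217 CPM in *ncs2*∆*elp6*∆, against 240, 328 and 335 CPM in wild type (log2 fold change −0.54; edgeR, adjusted p = 0.0573).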

How the data were processed

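Per the labels and the study's methods, the authors trimmed the 5PSeq reads with cutadapt, mapped them with Bowtie 1.2.3 to open reading frames extended by 21 bp with at most 1 mismatch (build sacCer3), kept unique sense reads and removed PCR duplicates with UMI-tools by an 8-nt barcode. They deposited raw counts per gene with no normalization. A read shared by paralogs is therefore absent, and counts are of molecules, with 3 counts equal to 0.000722% to 0.00288% of a library.

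All 12 columns were matched to strains by name. The test was the quasi-likelihood test of edgeR 4.0.16 (R 4.3.3), on TMM-scaled counts after filterByExpr with a minimum count of 10, in 1 fit of all 12 libraries with strain as the only factor. Benjamini-Hochberg adjustment ran over 3378 genes, and adjusted p under 0.05 was called. The SE is the log2 fold change divided by the square root of F, and log2 CPM used a prior count of 2. Lengths and coordinates came from RefSeq R64, where all 36 members matched by locus tag. The procedure was tested on simulated data for *ncs2*∆*elp6*∆ against wild type. It recovered 47.9% of changes of log2 size 1 and 90.7% of those of log2 size 2, with 12 false calls. The simulation had 193 changed genes among 3218, whereas 30.1% of tested genes were called in the data. These rates therefore need not hold for the data. The study scaled 5PSeq to RNA-seq, which is not used here.

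The members and lists were chosen by name and role, with earlier results of these data known. Named genes are *KRS1*, *GLN4*, *GUS1*, *SES1*, *FRS2*, every member called, and the member with the smallest p where none was. *ARC1* and *DED81* in *ncs2*∆*elp6*∆, *LOS1*, *MES1* and the genes at the ends of a range were chosen after values were seen. So were genes named because their libraries did not overlap, and the values of the 4 called genes in other comparisons. Alternatives were DESeq2 1.42.0, upper-quartile scaling, no filter, 10 counts in every library, only the strains compared, a replicate block, each library left out, other forms of the log2 difference and, added after seeing the data, library totals without TMM.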

Additional observations from a re-analysis of the deposited data

How the results depend on the processing

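*THS1*, *MSE1* and *MSD1* in *ncs2*∆*elp6*∆ against wild type kept their call and direction under every alternative that tested them. The 2 mitochondrial genes did not reach 10 counts in every library, so under that filter 0 members were lower against wild type in either *ncs2*∆*elp6*∆*hel2*∆ or *ncs2*∆*elp6*∆, and in *ncs2*∆*elp6*∆*hel2*∆ against *hel2*∆ 0 were lower and 1 (*DPS1*, 0.56) was higher. Depth limits the mitochondrial genes, of which 6 of 14 were not tested and *MSD1* rested on 3 to 16 reads per library.

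Without the low-count filter 1 member, *THS1*, was higher in *ncs2*∆*elp6*∆ against wild type, while *DPS1* (0.68, adjusted p = 0.0518 by edgeR) lost its call, and the mitochondrial median was −0.098 in *ncs2*∆*elp6*∆*hel2*∆ against *ncs2*∆*elp6*∆ and −0.36 against *hel2*∆, over 14 genes in place of 8. With library totals in place of TMM, 4 members were higher in *ncs2*∆*elp6*∆ against wild type with a mitochondrial median of −0.13 and *GLN4* at 0.17, and in *ncs2*∆*elp6*∆*hel2*∆ against wild type 2 were higher and 0 lower. Against *hel2*∆, 1 was higher (*DPS1* 0.67), with a cytosolic median of 0.14 and *GUS1* at 0.16, and *KRS1* was at −0.012 against *ncs2*∆*elp6*∆. *GUS1* was at 0.049 against *hel2*∆ with 10 counts required in every library. From summed raw counts, the log2 difference of the mcm5s2U genes was −0.098 in *ncs2*∆*elp6*∆*hel2*∆ against wild type and −0.060 against *hel2*∆. The causes were not tested.

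The labels do not say whether the replicate numbers pair the libraries. Same-numbered libraries of *ncs2*∆*elp6*∆*hel2*∆ and *ncs2*∆*elp6*∆ had a mean correlation of deviations of 0.19 with 2 of 3 pairs over 0.1, and no pair of the other strains passed 0.1. With the replicate block, 1 member, *THS1*, was higher in *ncs2*∆*elp6*∆ against wild type, because *DPS1* (0.63) had an adjusted p of 0.0611 by edgeR, and 2 were lower. No other member gained or lost a call.

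When each library was left out in turn, 1 to 2 members were higher in *ncs2*∆*elp6*∆ against wild type, 0 to 2 higher and 0 to 2 lower in *ncs2*∆*elp6*∆*hel2*∆ against wild type, 0 to 1 higher against *ncs2*∆*elp6*∆ and 0 to 1 lower against *hel2*∆. The mitochondrial median ranged from −0.67 to −0.10 in *ncs2*∆*elp6*∆, −0.53 to −0.0090 in *ncs2*∆*elp6*∆*hel2*∆ and −0.25 to 0.076 in *hel2*∆, each against wild type, and from −0.35 to −0.043 in *ncs2*∆*elp6*∆*hel2*∆ against *hel2*∆. Among the uncalled genes, in *ncs2*∆*elp6*∆ against wild type *KRS1* ran from 0.23 to 0.56, *GUS1* from 0.084 to 0.53, *FRS2* from 0.10 to 0.58 and *ARC1* from 0.28 to 0.56. Signs turned only for uncalled genes. Against wild type *GLN4* ran from −0.31 to 0.14 in *ncs2*∆*elp6*∆, −0.13 to 0.39 in *ncs2*∆*elp6*∆*hel2*∆ and −0.40 to 0.054 in *hel2*∆. *GUS1* ran from −0.063 to 0.39 in *ncs2*∆*elp6*∆*hel2*∆ and −0.056 to 0.39 in *hel2*∆, and *SES1* from −0.24 to 0.42 in *ncs2*∆*elp6*∆ and −0.29 to 0.53 in *ncs2*∆*elp6*∆*hel2*∆. In *ncs2*∆*elp6*∆*hel2*∆ against *ncs2*∆*elp6*∆ *KRS1* ran from −0.17 to 0.17 and *GLN4* from −0.027 to 0.37. Against *hel2*∆ *KRS1* ran from −0.073 to 0.25 and *GUS1* from −0.093 to 0.053.

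Calls over all genes moved by more than 1.5 times in some settings. With 10 counts required in every library they numbered 553 in *ncs2*∆*elp6*∆ against wild type (1016 otherwise), 241 in *ncs2*∆*elp6*∆*hel2*∆ against wild type (374 otherwise), 308 against *hel2*∆ (492 otherwise) and 0 for the interaction (1 otherwise). For *ncs2*∆*elp6*∆*hel2*∆ against *ncs2*∆*elp6*∆ there were 311 without the low-count filter and 126 from only those strains (192 otherwise), and for the interaction 26 without the filter and 41 by DESeq2. With a library left out, calls ranged from 145 to 501 in *ncs2*∆*elp6*∆*hel2*∆ against wild type, 38 to 399 against *ncs2*∆*elp6*∆, 129 to 650 against *hel2*∆ and 1 to 92 for the interaction, and from 1 to 2 in *hel2*∆ against wild type (3 otherwise).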
